A study of Mus musculus with 2 samples.

Results

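The 10 genes described here carry out the absorption of dietary fat and its packaging into lipoproteins in the small intestine: Fabp1, Fabp2, Dgat1, Mttp, Apob, Apoa4, Apoa1, Apoc3, Cd36 and Npc1l1. They were taken by symbol from the 31053 genes of the deposited matrix, and all 10 were found. Together they held 0.298% of all UMIs in the kept cells of barcode set 1 and 0.469% in those of set 2. The study cultured mouse small intestinal organoids, epithelial structures grown in a dish, and its title concerns melatonin, prostaglandin E2 and YAP in intestinal repair. Its labels give 1 control sample and 1 melatonin-treated sample, each pooled from 3 organoid lines on culture day 3 and read with droplet-based 3′ single-cell RNA sequencing; they name no mouse strain, age or genotype.

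Both samples held the same matrix, byte for byte in 3 of 3 files, with 21806 barcodes that end in the suffix 1 (set 1) or 2 (set 2). No label or header ties a suffix to a treatment. The matrix was therefore treated as 1 sample, control and melatonin were not compared, and "set 2 over set 1" is an arbitrary direction. No p-value is given, since the cells of a pool do not replicate it and there is 1 pool per suffix. Every interval is a 95% interval and covers counting error only. After filtering, 2300 of 12364 barcodes of set 1 and 1766 of 9442 of set 2 remained as cells, with a median of 29872 and 28759 UMIs. Of 29 barcode sequences that carry both suffixes, 0 were kept under both.

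In the intestine, lipid absorption is the work of enterocytes, the absorptive cells with a brush border that mature as they leave the crypt. Fatty acids and cholesterol cross the brush border, are bound in the cytosol by fatty acid binding proteins and re-esterified to triglyceride in the endoplasmic reticulum. The triglyceride is then loaded onto apolipoprotein B, joined by smaller apolipoproteins, and secreted as chylomicrons. Crypt stem cells are not known for this function, and enteroendocrine cells, the hormone-producing cells of the epithelium, sense nutrients rather than absorb them.

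Cells were assigned by gates, each a threshold on the summed UMIs of marker genes per 10000 UMIs of the cell, and no member was a marker. The enterocyte gate used 16 brush border genes, the crypt gate 9 stem cell genes and the enteroendocrine gate 10 enteroendocrine genes. The last list holds granule genes such as Chga and Chgb, the transcription factors Neurog3, Neurod1 and Isl1, and also Tph1. A class is thus a range of a score. Enterocyte-gated cells numbered 97 in set 1 (4.22% of kept cells, 3.43 to 5.12%) and 165 in set 2 (9.34%, 8.03 to 10.8%). Crypt-gated cells numbered 1114 and 819, and enteroendocrine-gated cells 208 and 213. Within 25% of the enterocyte threshold lay 11 cells above it in each set, and 161 cells in set 1 and 89 in set 2 below it. The intestinal alkaline phosphatase gene Alpi, a defining brush border gene, stood at 175 and 153 CPM (UMIs scaled to a total of 1000000) in the enterocyte-gated cells of set 1 and set 2, and at 2.36 and 1.75 CPM in crypt-gated cells. The stem cell gene Lgr5 stood at 10.5 and 5.88 CPM in the enterocyte gate and at 137 and 107 CPM in the crypt gate. In enterocyte-gated cells the median per 10000 UMIs was 36.6 and 42.5 for brush border markers, against 1.27 and 0.979 for stem cell markers and 0.549 and 0.483 for enteroendocrine markers.

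Among the genes of other tissues that could bring in lipoprotein RNA, adipocyte markers summed to 0.308 and 0.0587 CPM over all kept cells, with 1 of 3 markers at 0 in each set. Endothelial markers summed to 4.93 and 3.23 CPM, with 1 and 3 of 4 at 0, and macrophage and other immune markers to 4.71 and 4.44 CPM, with 2 and 3 of 7 at 0. Hepatocyte markers summed to 280 and 209 CPM. That sum came mostly from Ttr and Afp, while Alb, the liver's albumin gene, was 3.33 and 0.978 CPM. Enteroendocrine-gated cells held 2575 and 1763 CPM of the hepatocyte list, crypt-gated cells 131 and 83.3 CPM and enterocyte-gated cells 28.8 and 30.3 CPM.

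Because 9 of the 10 members were each counted at 4584 UMIs or more and were together highest in one cell class, the DNA just upstream of their start sites is shown for those whose promoter carries one of 4 short motifs of intestinal or general factors, and for Apoa1 and Apoa4, the members with large differences between classes that carry none. The sequences are the 250 bases before the annotated start from RefSeq, mouse build GRCm38.p6, written 5′ to 3′ on the gene's strand. The table matched 8 of 10 members, without Apoc3 and Dgat1. The capitals mark matches, on either strand, to TTTATNG (the CDX motif) or TATAAA (the TATA box).
Fabp1: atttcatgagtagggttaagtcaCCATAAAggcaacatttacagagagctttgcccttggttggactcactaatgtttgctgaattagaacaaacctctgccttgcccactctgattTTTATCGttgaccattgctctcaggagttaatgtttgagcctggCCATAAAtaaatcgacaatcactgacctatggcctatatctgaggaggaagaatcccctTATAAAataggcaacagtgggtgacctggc
Fabp2: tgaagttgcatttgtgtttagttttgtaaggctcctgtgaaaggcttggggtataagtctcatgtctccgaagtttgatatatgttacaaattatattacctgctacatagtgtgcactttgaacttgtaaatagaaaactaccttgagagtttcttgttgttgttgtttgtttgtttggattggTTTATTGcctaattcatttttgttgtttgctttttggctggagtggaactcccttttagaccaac
Apob: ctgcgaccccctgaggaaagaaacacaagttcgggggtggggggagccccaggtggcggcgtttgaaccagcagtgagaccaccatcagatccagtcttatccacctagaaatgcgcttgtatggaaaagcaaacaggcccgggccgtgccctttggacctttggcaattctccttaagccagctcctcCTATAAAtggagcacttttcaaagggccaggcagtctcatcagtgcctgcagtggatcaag
Apoa1: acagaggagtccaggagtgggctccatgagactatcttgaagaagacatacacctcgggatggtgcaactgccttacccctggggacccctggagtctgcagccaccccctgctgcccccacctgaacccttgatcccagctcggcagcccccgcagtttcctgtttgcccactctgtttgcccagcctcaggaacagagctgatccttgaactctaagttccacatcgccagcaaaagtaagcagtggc
Apoa4: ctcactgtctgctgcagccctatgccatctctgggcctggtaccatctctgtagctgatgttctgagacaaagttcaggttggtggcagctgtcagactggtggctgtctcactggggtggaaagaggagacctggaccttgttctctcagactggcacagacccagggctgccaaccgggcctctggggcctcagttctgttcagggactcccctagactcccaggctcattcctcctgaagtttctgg

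These windows lie at chr6:71199629-71199878 (plus strand), chr3:122894822-122895071 (plus), chr12:7977427-7977676 (plus), chr9:46228380-46228629 (plus) and chr9:46240594-46240843 (plus). Fabp1 held 3 CDX matches, starting 227, 133 and 89 bases before the start site, and a TATA box at 30. Fabp2 held 1 CDX match at 65 bases. In Apob a CDX match at 61 bases overlapped the TATA box at 60. The CDX motif was present in 3 of 8 member promoters and in 9.81% of 32851 mouse promoters of this length, and the TATA box in 2 of 8 and in 12.4%. The letters of the HNF4 motif CAAAGTCCA and of the GATA motif AGATAA were in 0 of 8 members, against 0.384% and 9.99% of all promoters. These matches describe letters in a window and were not tested as binding sites. Apoa1, Apoc3 and Apoa4 are consecutive protein-coding genes on chromosome 9 in the RefSeq annotation, followed by Apoa5.

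Over all kept cells the members differed widely in how many UMIs they gave. Fabp1 gave 224120 UMIs and Fabp2 97322, while Cd36 gave 53 UMIs in 44 of 4066 cells. Levels below are CPM of UMIs summed over the cells of a class. Each UMI stands for the 3′ end of 1 captured transcript, so no division by gene length was made, and capture can still differ between genes.

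The 2 cytosolic fatty acid binding proteins were the most abundant members. Fabp1, the liver-type protein that also carries bile acids and other ligands, reached 20799 CPM (20639 to 20959) and 18643 CPM (18530 to 18756) in the enterocyte-gated cells of set 1 and set 2. In crypt-gated cells it was 290 and 223 CPM, and in enteroendocrine-gated cells 73.4 and 65.1 CPM. The 3 classes did not overlap, and the enterocyte level was higher than the crypt level by 6.16 on the log2 scale (6.13 to 6.19) in set 1 and by 6.38 (6.34 to 6.42) in set 2. These and all log2 ratios below are of CPM plus 1, which understates the ratio of low genes. A few crypt-gated cells weighed heavily in the Fabp1 sum: 3 cells held 14.6% of it in set 1 and 12.7% in set 2, and the median crypt-gated cell stood at 103 and 61.0 CPM.

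Fabp2, the intestinal-type binding protein, had a less steep pattern. Enterocyte-gated cells held 4773 CPM (4697 to 4850) and 5305 CPM (5245 to 5366), crypt-gated cells 592 CPM (584 to 599) and 339 CPM (333 to 346). Its log2 ratio was 3.01 in set 1 and 3.96 in set 2, so that the crypt level was 12.4% and 6.40% of the enterocyte level. Its order against Fabp1 changed between the classes: Fabp1 UMIs outnumbered those of Fabp2 in enterocyte-gated cells, while Fabp2 UMIs outnumbered those of Fabp1 in crypt-gated cells of both sets. Enteroendocrine-gated cells held 87.4 and 65.4 CPM of Fabp2, below the crypt level in both sets.

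Re-esterification and loading were represented by Dgat1 and Mttp. Dgat1, which makes triglyceride from diglyceride, was 233 CPM (217 to 251) and 226 CPM (214 to 239) in enterocyte-gated cells and 58.1 and 54.3 CPM in crypt-gated cells. This difference, 1.99 and 2.04 on the log2 scale, was the smallest among the 9 members other than Cd36, and enteroendocrine-gated cells held 37.6 and 34.2 CPM. Mttp, the transfer protein that lipidates apolipoprotein B, was 671 CPM (642 to 700) and 784 CPM (761 to 808) in enterocyte-gated cells, 89.6 and 78.8 CPM in crypt-gated cells and 19.7 and 23.7 CPM in enteroendocrine-gated cells. Its 3 class levels did not overlap in either set.

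Apob, the structural protein of the chylomicron, was 443 CPM (420 to 467) and 543 CPM (524 to 563) in enterocyte-gated cells. It was 55.9 and 69.5 CPM in crypt-gated cells and 93.8 and 87.1 CPM in enteroendocrine-gated cells. The enterocyte-to-crypt ratio of Apob was 2.96 and 2.95 on the log2 scale, close to that of its loading factor Mttp (2.89 and 3.30), but the other classes differed: Mttp was lower in enteroendocrine-gated than in crypt-gated cells by the 2-fold rule below, while the log2 ratio of Apob was 0.74 and 0.32, short of that rule, with 0.44 and 0.37 as the median over all genes.

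The exchangeable apolipoproteins had, with Fabp1, the largest differences among the 9 members other than Cd36. Apoa4, which coats nascent chylomicrons, was 2891 CPM (2832 to 2951) and 3385 CPM (3337 to 3434) in enterocyte-gated cells and 57.6 and 36.3 CPM in crypt-gated cells. Apoa1, the main protein of high-density lipoprotein, was 1041 CPM (1005 to 1077) and 1521 CPM (1489 to 1554) against 7.54 CPM (6.72 to 8.44) and 12.2 CPM (10.9 to 13.5). Apoc3, an inhibitor of triglyceride clearance, was 1228 CPM (1189 to 1267) and 946 CPM (921 to 972) against 31.0 and 15.2 CPM. The log2 ratios were 5.63 and 6.51 for Apoa4, 6.93 and 6.85 for Apoa1, and 5.26 and 5.87 for Apoc3. In set 2, 3 cells held 22.9% of the Apoc3 UMIs of the enterocyte gate, and the median enterocyte-gated cell stood at 510 CPM, against 817 CPM in set 1.

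The 2 uptake proteins at the brush border were the lowest members in enterocyte-gated cells. Npc1l1, the cholesterol transporter that ezetimibe blocks, was 118 CPM (106 to 130) and 163 CPM (153 to 174) in enterocyte-gated cells and 24 and 23.5 CPM in crypt-gated cells. In enteroendocrine-gated cells the values were 99.7 CPM (88.5 to 112) for set 1, overlapping the enterocyte level, and 88.8 CPM (78.5 to 100) for set 2, without overlap. Cd36, a fatty acid translocase, was nearly absent. The enterocyte gate held 16 and 17 UMIs of it (5.11 CPM, 2.92 to 8.30, and 3.03 CPM, 1.76 to 4.85), the crypt gate 3 and 1. The linear ratio of Cd36 was 68.5 in set 1 with a counting interval of 19.6 to 367, and 84.8 in set 2 with an interval of 13.3 to 3544.

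All 10 members met the rule for a higher level in enterocyte-gated than in crypt-gated cells in both sets, at least 2-fold with intervals that do not overlap. Over all genes with at least 10 UMIs in the compared classes, 11.1% of 13146 were higher by that rule in set 1 and 10.7% of 12685 in set 2, and 9.09% of 12514 in both. The lower direction held 0 members, and 13.4% and 17.7% of all genes. The median log2 ratio of the members was 2.99 in set 1 and 3.63 in set 2, against -0.18 and -0.21 over all genes. Enterocyte-gated cells had a higher mitochondrial share than crypt-gated cells, with medians of 14.0 and 14.4% against 9.24 and 9.02%, and its part in these ratios was not tested. With a limit of 10% mitochondrial UMIs the enterocyte gate kept 16 and 15 cells, the medians were 2.13 and 3.03, and 9 of 10 members met the rule, without Cd36.

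**Figure D1:**
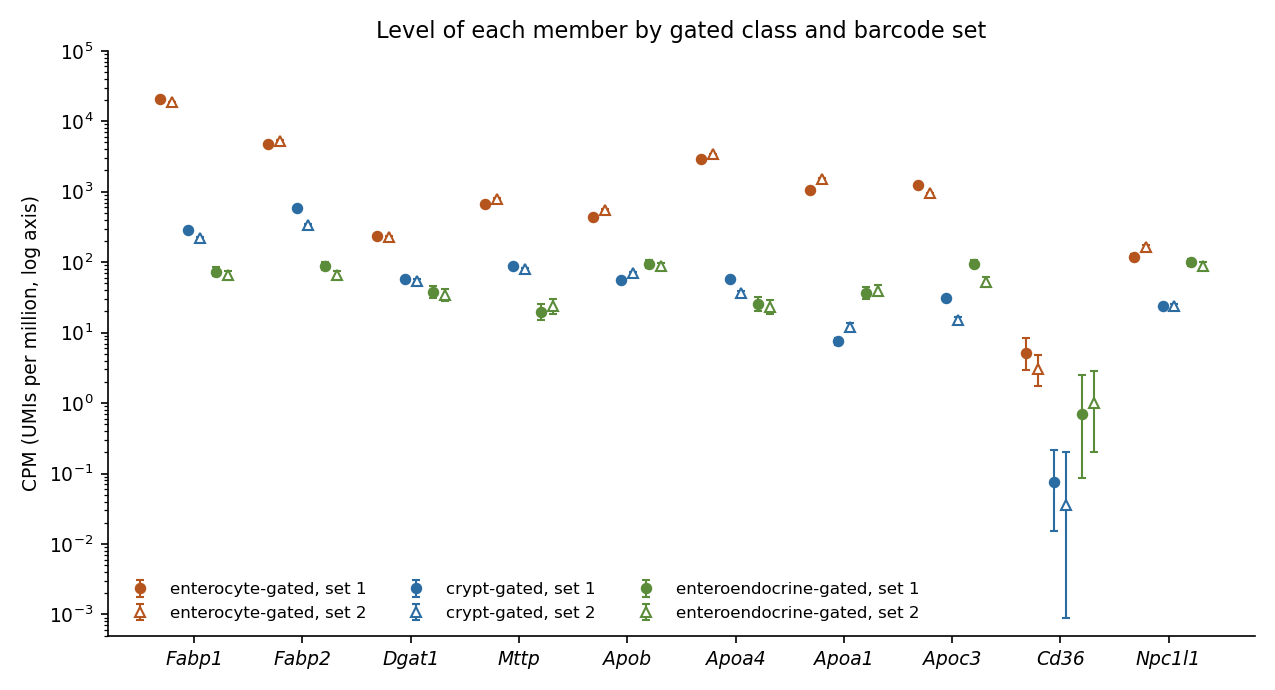
Level of each member in CPM (log axis) in enterocyte-gated, crypt-gated and enteroendocrine-gated cells, with set 1 as filled circles and set 2 as open triangles and bars for exact Poisson 95% intervals. The enterocyte-gated level is the highest for every member except that it overlaps the enteroendocrine-gated level for Npc1l1 in set 1 (118 against 99.7 CPM) and for Cd36 in set 2.

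The crypt-gated cells serve as the background for free RNA, and the members did not stand in 1 ratio there. As a share of the enterocyte level, the crypt level was 0.725% and 0.80% for Apoa1, 1.39% and 1.2% for Fabp1, 1.99% and 1.07% for Apoa4, and 2.52% and 1.61% for Apoc3. It was 12.6% and 12.8% for Apob, 13.4% and 10.0% for Mttp, 20.4% and 14.4% for Npc1l1, and 24.9% and 24% for Dgat1. The share for Apoa1, Fabp1, Apoa4 and Apoc3 was thus below that for Fabp2, Apob, Mttp, Npc1l1 and Dgat1 in both sets, and Cd36 (1.46% and 1.18%) rests on 3 and 1 UMIs. How far free RNA adds to the crypt values was not tested.

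The share of cells with at least 1 UMI, computed after thinning every cell to 2000 UMIs, followed the levels. Fabp1 was found in 96.0% and 98.2% of enterocyte-gated cells (89.8 to 99.0% and 94.8 to 99.6%) and in 27.0% and 19.8% of crypt-gated cells. For Apoa1 the shares were 54.7% and 66.2% against 1.57% and 2.54%, and for Apoa4 83.3% and 89.3% against 11.1% and 7.07%. Fabp2 was found in 96.3% and 98.0% of enterocyte-gated cells and also in 64.6% and 44.3% of crypt-gated cells, the highest crypt share of any member. Without thinning, Fabp1 was found in 99.0% and 99.4% of enterocyte-gated and in 89.0% and 79.9% of crypt-gated cells, at median depths of 34491 and 34005 UMIs for the first and 36525 and 33563 for the second. The unthinned share therefore hardly separates the classes for Fabp1, whereas the level does.

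Within the path from crypt to mature enterocyte, the members appeared at different brush border scores. Cells with at least 5000 UMIs that passed no gate other than enterocyte or crypt were placed in 6 bins of the brush border score, with edges at 2.5, 5, 10, 20 and 40 UMIs per 10000. Cells that passed both of these gates, 21 in set 1 and 16 in set 2 before the limit of 5000 UMIs, were not left out here. Whether they are doublets was not tested. The highest bin held 40 cells in set 1 and 88 in set 2. Fabp1 started low and came before the apolipoproteins A1, A4 and C3. In the bin of 5 to 10, still below the enterocyte threshold, it was 1168 and 2460 CPM against 193 and 194 CPM in the lowest bin, and in the bin of 10 to 20 it stood at 33.1% and 51.6% of its level in the highest bin. In the bin of 5 to 10 it stood at 4.6% and 12.2%, in set 1 below Fabp2 (11.1%), Apob (12.1%), Mttp (12.7%), Npc1l1 (18.7%) and Dgat1 (25.6%), and in set 2 above Fabp2 (10.4%) but below Mttp (16.1%), Apob (18.0%), Npc1l1 (19.2%) and Dgat1 (31.7%). Apoa1 came late. It was 10.8 and 23.1 CPM in the bin of 5 to 10, 90.6 and 88.5 CPM in the bin of 10 to 20, and 390 and 740 CPM in the bin of 20 to 40, before it reached 2039 and 2373 CPM in the highest bin.

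Among the 9 members other than Cd36, only Apoa1 first passed 50% of its highest level in the highest bin in both sets. In the bin of 20 to 40 it stood at 19.1% and 31.2%, while Fabp1 stood at 86.2% and 94.0%. Apoa4 stood at 40.8% and 64.2% in that bin, and Apoc3 at 41.1% and 95.6%, the value on which the sets differed most. Fabp2 (60.1% and 59.2%), Npc1l1 (66.8% and 64.1%), Apob (57.1% and 69.1%) and Mttp (59.1% and 71.3%) lay between. Dgat1 had the shallowest course, with 17.5% and 21.3% of its highest level already in the lowest bin. When cells were ranked by a second list of enterocyte markers that holds neither a brush border gene nor a member, Apoa1 again first passed 50% of its highest level in the highest bin, in both sets, and Fabp1 did so in the bin before it.

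**Figure D2:**
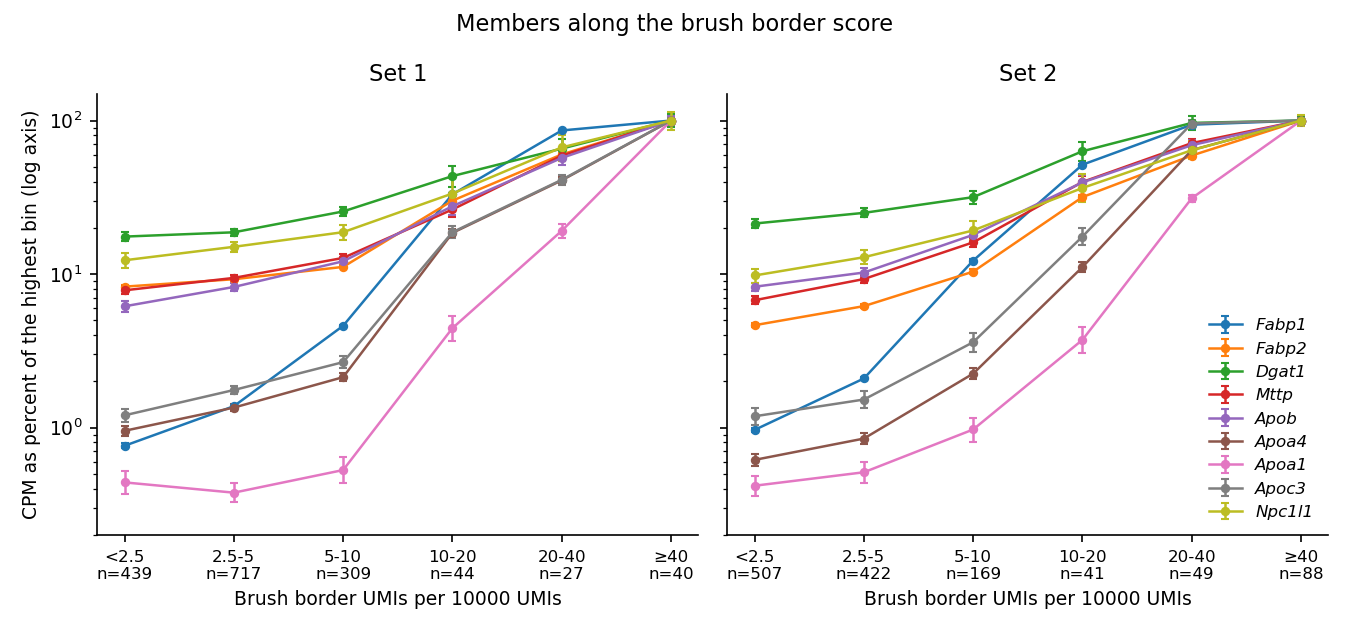
Level of 9 members as a percent of their level in the highest bin (log axis) across 6 bins of the brush border score, in set 1 (left) and set 2 (right), with bars for exact Poisson 95% intervals and the number of cells under each bin. Cd36 is left out for its 53 UMIs. The Apoa1 line lies below the others up to the bin of 20 to 40 in both sets, and Fabp1 starts with the low group and lies among the high group from the bin of 10 to 20.

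Among the enterocyte-gated cells themselves (90 cells of set 1 and 161 of set 2 with at least 5000 UMIs), the rank correlation with the brush border score was highest for Apoa1, Mttp and Apoa4 in set 1 (0.83, 0.81 and 0.79) and for Apoa4 and Apoa1 in set 2 (0.75 and 0.70). It was 0.49 and 0.26 for Fabp1 and 0.29 and 0.12 for Cd36. Among pairs of members, Apoa4 with Apoa1 had the highest rank correlation in both sets (0.81 and 0.75), followed by Apoa4 with Apoc3 (0.80 and 0.73). These describe cells of 1 pool each, which vary in depth and in mitochondrial content.

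Enteroendocrine-gated cells had their own order of the members. By the 2-fold rule, 3 of 9 members with enough UMIs were higher there than in crypt-gated cells in both sets: Apoa1 (36.9 and 39.5 CPM, log2 ratio 2.15 and 1.62), Apoc3 (95.2 and 52.0 CPM, 1.59 and 1.71) and Npc1l1 (2.01 and 1.87). The hepatocyte list was also higher there (2575 and 1763 CPM), and its part in the Apoa1 and Apoc3 values was not tested. Over all genes, 31.2% in set 1 and 28.5% in set 2 were higher by that rule, so that a count of 3 in 9 is close to the background. Fabp2 (log2 ratio -2.74 and -2.36), Mttp (-2.13 and -1.69) and Fabp1 (-1.97 and -1.76) were lower in both sets, where 9.98% and 11.9% of all genes were lower. Apoa4 was lower by the rule in set 1 (-1.14) and stood at -0.61 in set 2. Enteroendocrine-gated cells were shallower, with a median of 13522 and 13915 UMIs.

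Set against the enterocyte level, the enteroendocrine level was 84.8% (75.2 to 95.3) and 54.4% (48.1 to 61.3) for Npc1l1, 21.2% and 16.0% for Apob, 7.75% and 5.49% for Apoc3, and 0.353% and 0.349% for Fabp1. Of the 10 members, 9 in set 1 and 8 in set 2 were higher in enterocyte-gated cells by the 2-fold rule, where 9.14% and 9.76% of all genes were higher. In the lower direction there were 0 members, and 34.5% and 34.2% of all genes. Npc1l1 was outside the rule in both sets (log2 ratio 0.24 and 0.87), and Cd36 was outside it in set 2.

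The members also differed between hormone-defined subsets of the cells passing the enteroendocrine gate, alone or together with the enterocyte gate. These subsets were chosen after values had been seen and are given as a description. Cells with at least 20 UMIs per 10000 of Gcg, the glucagon-like peptide gene of L cells, numbered 19 in set 1 and 54 in set 2, those with Tph1, the serotonin synthesis enzyme of enterochromaffin cells, 38 and 65, and those with Afp, the alpha-fetoprotein gene, 30 and 20. Of these, 11 cells passed both the Tph1 and the Afp threshold. Fabp2 was 280 CPM (227 to 341) and 184 CPM (158 to 212) in Gcg cells and 60.0 and 36.7 CPM in Tph1 cells. Mttp was 95.1 and 63.8 CPM in Gcg cells and 24.7 and 15.7 CPM in Tph1 cells, without overlap in either set.

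Apoa1 and Apoc3 were lowest in Gcg cells. Apoa1 was 35.3 CPM (21.6 to 54.5) and 56.7 CPM (42.6 to 73.9) in Tph1 cells, where 3 cells held 65% and 27.8% of it, while Gcg cells held 1 UMI (2.88 CPM, 0.0730 to 16.1) and 7 UMIs (6.87 CPM, 2.76 to 14.2). Apoc3 was 269 CPM (224 to 321) and 180 CPM (140 to 229) in Afp cells, against 31.7 and 11.8 CPM in Gcg cells and 52.7 and 30.2 CPM in cells below all 3 thresholds. The sum for enteroendocrine-gated cells as a whole therefore mixes subsets with unlike Apoc3 levels. Npc1l1 varied least, from 81.0 to 121 CPM over the 4 subsets and both sets.

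**Figure D3:**
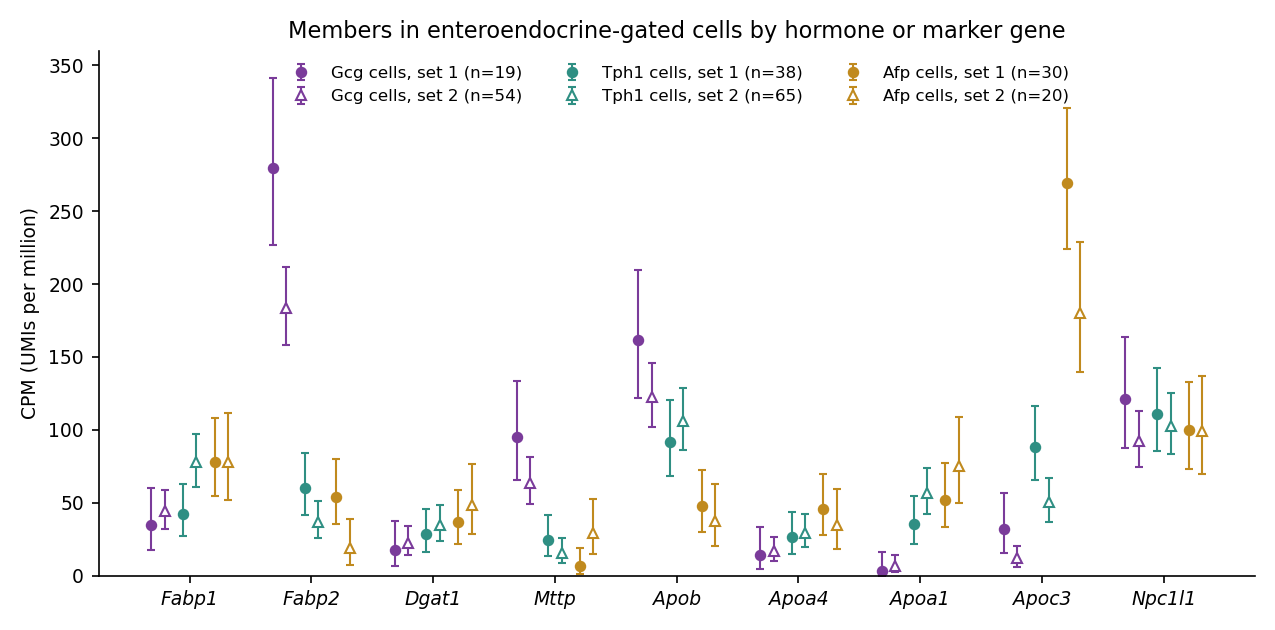
Level of 9 members in CPM (linear axis from 0) in cells of the enteroendocrine gate above the threshold for Gcg, Tph1 or Afp, with set 1 as filled circles, set 2 as open triangles and bars for exact Poisson 95% intervals. Fabp2 and Mttp are highest in Gcg cells, Apoc3 in Afp cells (269 and 180 CPM), and Npc1l1 lies near 100 CPM in all of them.

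In 1 group of cells the members stood at unlike shares of their enterocyte level. Cells that passed both the enterocyte and the enteroendocrine gate, 58 in set 1 and 55 in set 2, held Sis, the brush border sucrase-isomaltase, at 1169 and 844 CPM, against 1678 and 1644 CPM in enterocyte-gated and 317 and 213 CPM in enteroendocrine-gated cells. Their Alpi count was 0 and 2 UMIs, and they held 104 and 69.0 CPM of Fabp1 and 15.7 and 16.1 CPM of Apoa4, which is 0.499% and 0.370% of the enterocyte level for Fabp1. Npc1l1 was 105 and 94.6 CPM in them, 89.0% and 58.0% of the enterocyte level, and Apob 126 and 173 CPM, 28.5% and 31.9%. This Npc1l1 level was near that of enteroendocrine-gated cells (99.7 and 88.8 CPM). Fabp2 (179 and 118 against 87.4 and 65.4 CPM) and Mttp (51.8 and 43.5 against 19.7 and 23.7 CPM) were higher than in enteroendocrine-gated cells. Apoa1 (12.7 and 7.56 against 36.9 and 39.5 CPM) and Apoc3 (26.4 and 15.1 against 95.2 and 52.0 CPM) were lower. Whether these are doublets was not tested. In the cells passing the revival gate, named for stem cells of the regenerating epithelium that express Clu, numbers were small (12 and 15 cells). Apob was 461 and 395 CPM there and was found in 11 of 12 and 12 of 15 cells, but 3 cells held 90.9% of its UMIs in set 1 and 56.3% in set 2, and the median cell stood at 130 and 230.2 CPM. A single cell held 98.7% of the Fabp1 UMIs in set 2 and 98.3% and 96.0% of the Apoc3 UMIs in set 1 and set 2.

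Between the barcode sets, over all kept cells, 4 of 10 members were higher in set 2 by at least 1.5-fold with intervals apart. By that rule 2.46% of 15474 genes were higher and 1.4% lower. For Apoa1 the levels were 66.7 CPM (64.7 to 68.8) and 194 CPM (190 to 198), a log2 ratio of 1.52. Apoa4 was 218 and 424 CPM (0.96), Fabp1 1483 and 2597 CPM (0.81), and Apob 84.5 and 134 CPM (0.65). Mttp (0.43), Npc1l1 (0.42), Apoc3 (0.28), Fabp2 (0.22) and Dgat1 (0.16) differed by less than 1.5-fold, and Cd36 overlapped. The median over members was 0.42, against 0.03 over all genes.

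The share of enterocyte-gated cells moved the same way, from 4.22% in set 1 to 9.34% in set 2. Enterocyte-gated cells held 79.2% of the Apoa1 UMIs of set 1 and 86.3% of those of set 2, 71.2% and 78.9% for Fabp1, and 67.3% and 87.7% for Apoa4. For Dgat1 and Npc1l1 they held 17.5% and 17.0% in set 1 and 32.9% and 37.9% in set 2. With a mitochondrial limit of 10%, 1 of the 4 members still passed 1.5-fold (Apoa1), and Fabp2, Mttp and Dgat1 had ratios below 0.

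Within enterocyte-gated cells 0 of 10 members passed 1.5-fold in either direction, where 0.993% of 10874 genes were higher and 2.57% lower. Short of that rule, the highest ratios were those of Apoa1 (log2 ratio 0.55, 0.49 to 0.61) and Npc1l1 (0.47, 0.29 to 0.65), with intervals apart. Apoc3 (-0.38, -0.44 to -0.32) and Fabp1 (-0.16, -0.17 to -0.14) had the lower level in set 2, also with intervals apart. The share of all genes with intervals apart is not given. The median over members was 0.19. The brush border score of these cells, with a median of 36.6 in set 1 and 42.5 in set 2, moved with the sets, and its part in these ratios was not tested. These calls depended on the gate and the filter: 4 members were higher past 1.5-fold with the enterocyte threshold halved (Apob, Apoa4, Apoa1 and Npc1l1) and 4 at a mitochondrial limit of 10% (Apob, Apoa4, Apoa1 and Apoc3). Apoa1 passed 1.5-fold under 6 of the alternatives in all.

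Within crypt-gated cells the members went in both directions. Apoa1 was higher in set 2 by the 1.5-fold rule (0.62, 0.40 to 0.85), where 2.2% of 13672 genes were higher. Apoc3 (-0.98, -1.14 to -0.82), Fabp2 (-0.80, -0.83 to -0.77) and Apoa4 (-0.65, -0.76 to -0.55) were lower, where 1.87% were lower. Sis was lower there too, at 180 and 82.8 CPM, and the median brush border score was 3.26 and 2.71; their part was not tested. Within enteroendocrine-gated cells Apoc3 was the 1 of 9 members past 1.5-fold (-0.86, -1.15 to -0.57), where 1.2% of genes were higher and 2.76% lower. Afp cells, which held 124 of the 298 Apoc3 UMIs of the whole enteroendocrine gate in set 1 and 67 of 174 in set 2, numbered 30 and 20. Those totals include cells that also passed the enterocyte gate, which the ratio leaves out. The Apoc3 level was lower in set 2 in each subset as well. It was 269 and 180 CPM in Afp cells, 88.3 and 50.4 CPM in Tph1 cells and 31.7 and 11.8 CPM in Gcg cells. Cells below all 3 thresholds held 52.7 and 30.2 CPM. The part of subset numbers in the ratio was not tested. Apoc3 was thus lower in set 2 within each of the 3 classes while its level over all kept cells was higher. Fabp1 had the same signs, at -0.16, -0.38 and -0.17 in enterocyte-gated, crypt-gated and enteroendocrine-gated cells and 0.81 over all kept cells. Dgat1 did too (-0.05, -0.09 and -0.13, and 0.16), with overlapping intervals in each class. In enterocyte-gated cells the direction of Apoc3 turned at a mitochondrial limit of 10%, where its ratio was 1.99 on 16 and 15 cells.

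**Figure D4:**
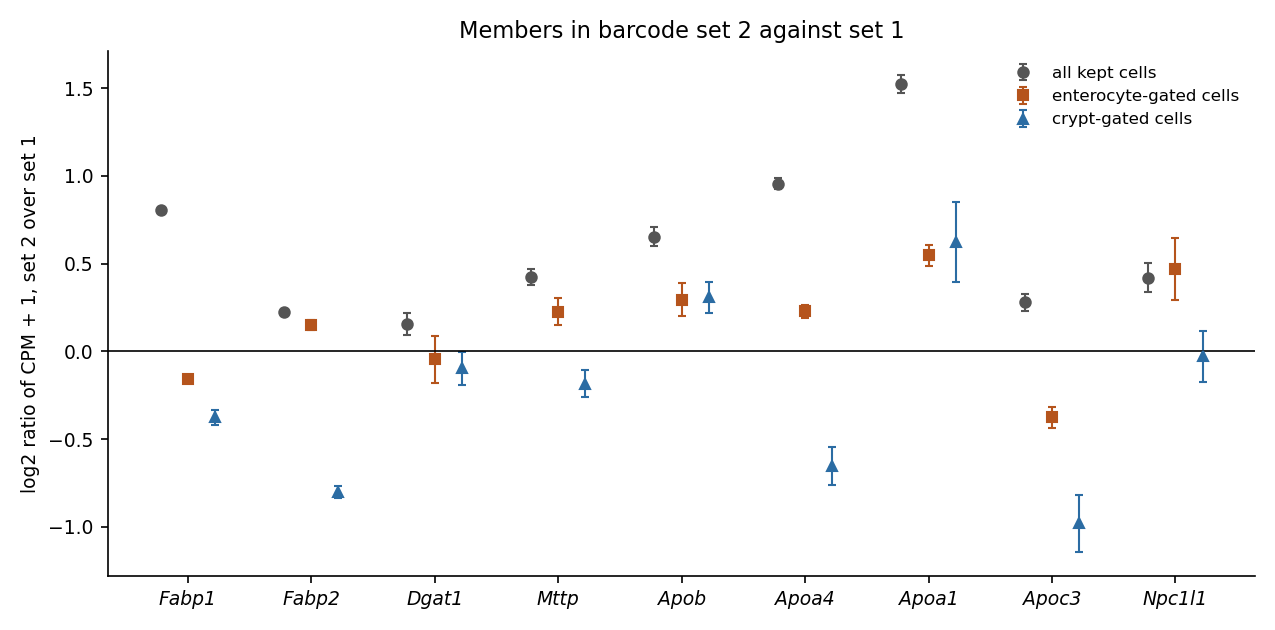
Log2 ratio of CPM plus 1, set 2 over set 1, for 9 members in all kept cells (circles), enterocyte-gated cells (squares) and crypt-gated cells (triangles), with bars for 95% counting intervals and a line at 0. All kept cells lie above 0 for each of the 9 members. Apoc3, Fabp1 and Dgat1 lie below 0 in both classes, Dgat1 with an interval that includes 0 in enterocyte-gated cells. Apoa1 and Apob lie above 0 in all 3.

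Other genes of the pathway were read from lists chosen with earlier results of these data known, leaving out the members, by the same 2-fold rule between enterocyte-gated and crypt-gated cells in both sets (9.09% of all genes higher, 11.8% lower). In re-esterification 7 of 9 tested genes were higher and 0 lower. Mogat2, the monoacylglycerol acyltransferase of the enterocyte, was 162 and 139 CPM against 11.3 CPM in the crypt gate of both sets, Dgat2 74.8 and 104 CPM against 19.3 and 16.0 CPM, and Gpat3 25.6 and 28.7 CPM against 4.75 and 4.78 CPM. In chylomicron assembly and export 6 of 10 were higher and 0 lower. Among these, Apobec1, the enzyme that edits Apob RNA, was 42.5 and 39.3 CPM against 4.36 and 4.18 CPM, and Tm6sf2, an endoplasmic reticulum protein of lipoprotein lipidation, 151 and 172 CPM against 20.5 and 19.3 CPM. Cideb, which acts in lipoprotein lipidation, was 94.6 and 112 CPM against 26.3 and 25.4 CPM.

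Of the other apolipoproteins 2 of 4 tested genes were higher. Apoa2 was 35.1 and 23.7 CPM against 3.58 and 4.89 CPM, and Apoc2, an activator of lipoprotein lipase, 3.51 CPM (1.75 to 6.29) and 2.67 CPM (1.49 to 4.40) against 0.249 CPM (0.119 to 0.458) and 0.0357 CPM (0.000904 to 0.199). Apoa5, the neighbour of Apoa4, had 0 UMIs in both classes of both sets, and Apoc1 and Apom had too few to be tested. Sterol efflux genes were higher in 3 of 3 tested: Abcg5 and Abcg8, which form the transporter that returns sterols to the lumen, were 153 and 204 CPM and 142 and 204 CPM against 12.0 and 24.4 CPM and 17.9 and 30.2 CPM. Abca1, which loads cholesterol onto apolipoprotein A1, was 29.7 and 25.6 CPM against 0.274 and 1.14 CPM.

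Uptake genes were higher in 2 of 4 (Scarb1 at 90.7 and 75 CPM against 20.1 and 19.0 CPM, and Slc27a4 at 34.5 and 34.0 CPM against 6.70 and 9.92 CPM). Of the fatty acid binding and activation genes, Acsl5 was higher (660 and 812 CPM against 75.8 and 99.8 CPM) and Acsl4, another acyl-CoA synthetase, was lower (3.20 and 2.67 CPM against 9.66 and 8.71 CPM), out of 4. Lipid droplet genes were higher in 4 of 8, led by Cidec (43.8 and 42.5 CPM against 3.98 and 4.53 CPM). Bile acid genes were higher in 4 of 5, and the basolateral exporter subunits Slc51b (45.7 and 31.7 CPM against 1.32 and 0.393 CPM) and Slc51a (16.0 and 8.90 CPM against 0.274 and 0.428 CPM) led them. Fabp6, the ileal bile acid binding protein, had 0 UMIs in the enterocyte gate of both sets. Fatty acid oxidation genes and PPAR targets were higher in 7 of 11, with Ehhadh at 72.5 and 76.2 CPM against 13.1 and 12.5 CPM and Pdk4 at 8.31 and 12.1 CPM against 2.36 and 2.11 CPM.

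Of 20 regulators 5 were higher and 0 lower. Creb3l3, a membrane-bound transcription factor of lipid metabolism, was 236 and 251 CPM against 7.72 and 7.96 CPM, a log2 ratio of 4.76 and 4.81. Ppargc1a was 14.7 and 23.7 CPM against 2.02 and 2.5 CPM, and Maf, a transcription factor, 39.9 and 53.8 CPM against 5.40 and 8.03 CPM; Hnf4g and Ppara were the other two. Hnf4a, Cdx2 and Gata4 did not meet the rule, with Hnf4a at 97.4 and 105 CPM against 85.5 and 90.6 CPM. Between the sets within enterocyte-gated cells, Slc51a was lower and Ppargc1a higher in set 2 by the 1.5-fold rule, and no other listed gene that was tested met it.

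Levels were also compared over 8 pools of at least 50 cells each. These were the enterocyte-gated, crypt-gated and enteroendocrine-gated cells and the cells that passed no gate, by set. Cells in more than 1 gate were left out. Among 4153 genes, those whose log2 level followed the mean of the members most closely were Atp5l (Pearson correlation 0.998), Slc9a3 (0.996), Ces2c (0.995), Slc2a2 (0.995) and Nat8f1 (0.995). Slc2a2, a glucose transporter, was 276 and 285 CPM in enterocyte-gated and 3.61 and 1.93 CPM in crypt-gated cells. Slc2a2 is itself a marker of the enterocyte gate, and gate markers were not left out of this ranking. Its level and correlation therefore follow in part from the gating and are not separate evidence of likeness to the members. Slc9a3, a brush border sodium-proton exchanger, was 52.1 and 46.1 against 1.67 and 0.999 CPM. Atp5l, a subunit of the mitochondrial ATP synthase, varied over a narrow range, from 816 to 1111 CPM, with its highest levels in enterocyte-gated cells. Among the members, Apoa4 had the highest correlation with the mean of the other 9 (0.990) and Npc1l1 the lowest (0.607).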

How the data were processed

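The authors deposited UMI counts per gene and barcode as whole numbers. Cell Ranger 3.1.0, STAR 2.7.3a and bcl2fastq 2.20.0 are named per the submitters' processing notes. The genome build of the files is not given in the sources used here. A barcode was kept as a cell if it had 500 genes or more, 1000 UMIs or more and a mitochondrial share of 20% or less. The gates asked for at least 10 (enterocyte), 5 (crypt) or 30 (enteroendocrine) marker UMIs per 10000, with 3 markers and 5 marker UMIs. These thresholds were set after the score distributions had been seen. Cells in more than 1 gate were left out of the classes, and no other doublet removal was made.

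UMIs were summed per class and set and scaled to CPM, with exact Poisson intervals. Shares have exact Clopper-Pearson intervals at the 95% level and used cells of at least 2000 UMIs, which left out 265 and 77 cells. Log2 ratios used a pseudocount of 1 CPM and genes with at least 10 UMIs. A gene was called at 2-fold (classes) or 1.5-fold (sets) with intervals apart. The ratio was checked on simulated counts. Python 3.11.15, scipy 1.17.1 and scanpy 1.11.5 were used.

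The members and gene lists were chosen with earlier results of these data known. The text names all members, up to 3 of the highest and 3 of the lowest called genes per list, and the 5 genes at 50 CPM or more most like the members' mean; a few others were named after their values were seen, and some items are not reported here. Promoter sequences came from RefSeq GRCm38.p6, read by symbol. Alternatives changed the mitochondrial limit, doublets, summing, pseudocount, denominator, gates and thinning.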

Additional observations from a re-analysis of the deposited data

Results flagged for a closer look

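The set 2 over set 1 ratio of Fabp2, Apoa4 and Mttp had opposite signs in enterocyte-gated and crypt-gated cells, with intervals apart in both classes. The share of all genes with this pattern is not given, so it is not read as particular to the members. The log2 ratio of Fabp2 was 0.15 in enterocyte-gated and -0.80 in crypt-gated cells, that of Apoa4 0.23 and -0.65, and that of Mttp 0.23 and -0.18. With 1 pool per set, the difference between the classes was not tested.

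Signal above the level of kept cells appeared in barcodes outside the filter. In the 7500 barcodes of set 1 and 5384 of set 2 with over 50% mitochondrial UMIs, with medians of 890 and 540 non-mitochondrial UMIs, Apoa1 was 172 and 480 CPM of non-mitochondrial UMIs, against 73.9 and 215 CPM in kept cells. Apoa4 was 555 and 703 CPM there, Apob 144 and 297 CPM, Mttp 178 and 258 CPM, Dgat1 185 and 287 CPM, and Npc1l1 63.0 and 97.0 CPM, all 5 above kept cells in both sets. Fabp1 and Fabp2, the most abundant members, were lower in those barcodes than in kept cells, at 1011 and 1243 CPM against 1643 and 2877 CPM for Fabp1 and 629 and 577 CPM against 890 and 1037 CPM for Fabp2. Apoc3 was 159 and 112 CPM against 115 and 140 CPM.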

How the results depend on the processing

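The median log2 ratio of enterocyte-gated over crypt-gated cells stayed above 2 in both sets under all alternatives run. For set 1 and set 2 it was 2.61 and 3.43 with no mitochondrial limit, 2.13 and 3.03 at a limit of 10%, 2.89 and 3.54 with a pseudocount of 10 CPM, 2.89 and 3.43 with a denominator free of mitochondrial, ribosomal protein and member genes, and 2.43 and 3.39 with the enterocyte threshold halved. It was 2.91 in set 1 without each gene's top 3 cells and 3.45 in set 2 with a crypt gate of cycling genes. Cd36 no longer met the rule in both sets at a limit of 10% and with a pseudocount of 10 CPM, and in set 1 without its top 3 cells.

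Over all kept cells, the median set 2 over set 1 was 0.11 at a limit of 10%, 0.31 as a mean over cells and 0.35 with the reduced denominator, and Apob did not pass 1.5-fold under any of these 3 settings. At 10%, the ratios of Fabp2 (-0.51), Mttp (-0.10) and Dgat1 (-0.089) changed sign, and Fabp1 and Apoa4 no longer passed 1.5-fold either. Within enterocyte-gated cells the median was 0.34 with no mitochondrial limit, 0.55 at 10%, 0.14 with the reduced denominator, 0.49 with the threshold halved and 0.047 with it doubled. There Apoc3 turned to 1.99 at 10%, on 16 and 15 cells, and Fabp1 to 0.26 with the threshold halved; 4 members passed 1.5-fold under each of these settings. The cause of these changes was not tested.

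The median share of cells with a UMI rises with depth: thinned to 5000 UMIs it was 80.4% and 84.6% in enterocyte-gated and 24.2% and 19.9% in crypt-gated cells, and with no thinning 95.4% and 98.8% against 77.6% and 67.7%. Over all alternatives, 292 values of single members moved by less than their counting interval and 213 by more, besides the 5 changes of sign named above. Dgat1 in enterocyte-gated cells, whose ratio of -0.046 between the sets had an interval that included 0, also changed sign under several settings, to at most 0.21 with the threshold halved. No paired analysis was possible because both samples hold 1 matrix and the labels give no replicates. The linear ratio of Cd36 between the sets over all kept cells had a counting interval of 0.703 to 2.23, so that smaller differences were not detectable.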
